A study of Mus musculus with 16 samples.

Results

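The 8 genes described here encode secreted growth factors and repair cytokines: Hgf, Igf1, Il6, Hbegf, Pdgfa, Pdgfb, Inhba and Nrg1. They were taken by gene symbol from a table of 15895 genes, and each of the 8 symbols was found once. RNA was sequenced from lymphatic endothelial cells sorted from mouse hearts as CD45 negative, CD31 positive and podoplanin positive. All mice were of the CD1 strain, and the labels name no genetic change. The 4 groups were a sham operation at postnatal day 1 (neonatal sham, P1), myocardial infarction at that age (neonatal MI), a sham operation at postnatal day 56 (adult sham, P56) and infarction at that age (adult MI), each with 4 libraries and each with hearts taken 3 days after surgery. Infarction was made by tying off a coronary artery. Neonatal libraries came from 6 pooled ventricles digested for 30 to 40 minutes, whereas adult hearts were male, 8 weeks old at surgery and perfused with enzyme for about 8 minutes. Age therefore cannot be told apart from sex, pooling and digestion in these libraries. The labels do not say that the libraries of a group came from separate animals or litters, so p-values measure the spread between libraries.

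Secreted factors of this kind act on neighbouring cells through surface receptors. Hepatocyte growth factor (Hgf) signals through the receptor tyrosine kinase MET, insulin-like growth factor 1 (Igf1) through IGF1R, heparin-binding EGF-like growth factor (Hbegf) and neuregulin 1 (Nrg1) through EGFR and the ERBB receptors, and platelet-derived growth factor chains A and B (Pdgfa, Pdgfb) through PDGFRA and PDGFRB. Interleukin 6 (Il6) signals through its receptor and gp130 to STAT3, and the inhibin beta A chain (Inhba) forms activin A, which signals through activin receptors to SMAD2 and SMAD3. Lymphatic vessels carry fluid and immune cells out of the heart, and lymphatic endothelial cells release factors that reach cardiomyocytes and stroma.

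The promoter windows of 4 of the genes are shown because these 4 passed the test for adult infarction below. Each window runs from 250 bases before to 50 bases after a RefSeq start site, on the plus strand of GRCm38.p6. Capitals mark a match to 1 of 5 motifs searched on both strands, none of them overlapping another in these windows. The AP-1 motif was spelled TGANTCA, with any base at N. The CRE motif was TGACGTCA, the part of an NF-kB site was GGGNNTTTC and the STAT motif was TTCNNNGAA. The TATA box was searched as TATAAA. The windows lie at chr5:16553245-16553544 for Hgf, chr10:87860861-87861160 for Igf1, chr5:30012864-30013163 for Il6 and chr13:16011601-16011900 for Inhba.
Hgf: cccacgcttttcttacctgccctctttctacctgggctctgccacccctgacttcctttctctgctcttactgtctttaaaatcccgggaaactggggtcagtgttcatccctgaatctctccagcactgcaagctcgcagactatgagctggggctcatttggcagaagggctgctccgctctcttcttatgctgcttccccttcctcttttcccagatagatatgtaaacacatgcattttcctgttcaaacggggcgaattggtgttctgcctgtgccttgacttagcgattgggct
Igf1: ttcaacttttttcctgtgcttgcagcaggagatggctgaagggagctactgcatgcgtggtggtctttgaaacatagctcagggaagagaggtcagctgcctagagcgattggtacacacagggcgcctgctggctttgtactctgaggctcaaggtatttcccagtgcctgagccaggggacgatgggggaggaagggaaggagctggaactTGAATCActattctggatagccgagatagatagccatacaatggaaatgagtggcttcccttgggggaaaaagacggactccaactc
Il6: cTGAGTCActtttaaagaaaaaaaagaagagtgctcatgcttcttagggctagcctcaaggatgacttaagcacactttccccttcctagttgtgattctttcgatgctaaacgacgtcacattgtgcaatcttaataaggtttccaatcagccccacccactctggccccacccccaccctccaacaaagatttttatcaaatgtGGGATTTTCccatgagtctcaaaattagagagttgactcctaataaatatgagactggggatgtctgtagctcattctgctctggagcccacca
Inhba: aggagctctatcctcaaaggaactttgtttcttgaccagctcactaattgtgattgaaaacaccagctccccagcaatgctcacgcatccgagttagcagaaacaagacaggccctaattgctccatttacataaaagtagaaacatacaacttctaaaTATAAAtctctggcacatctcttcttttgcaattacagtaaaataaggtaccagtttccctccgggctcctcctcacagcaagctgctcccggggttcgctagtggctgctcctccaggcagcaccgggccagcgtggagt

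The Il6 window holds an AP-1 match whose first base is at position -249 from the start site and the NF-kB part at -44. The Igf1 window holds an AP-1 match at -37, and the Inhba window a TATA box match at -91, while the Hgf window holds none of these letters. Of the 32851 promoter windows in the RefSeq table, 7.81% hold the AP-1 letters, 4.36% the NF-kB letters, 13.6% the TATA letters, 8.30% the STAT letters and 1.79% the CRE letters. A match describes the sequence and is not a site shown to be bound. The GC content was 51.3% for Hgf, 52.3% for Igf1, 44.0% for Il6 and 47.7% for Inhba, beside a median of 52.7% over all windows. The start site used for Igf1 lies inside the gene as the deposited table bounds it. Windows of 5 of the 8 genes were read, 7 in all. Neither the second Hgf window nor the 2 windows of Pdgfa hold any of the 5 motifs, and the Pdgfa windows are richer in G and C, at 67.0% and 73.3%.

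Libraries held 17103319 to 43837520 reads, and 3 of the 16 stood apart. Neonatal sham library 1, neonatal sham library 2 and adult MI library 5 had a read on 7746 to 9451 genes, against 14121 to 15821 genes in the other 13 libraries. Uqcrc1, a gene of mitochondrial complex III, took 18.1% to 99.8% of their reads, and 1 read there was worth a deposited value of 0.120 to 4.31, against 0.0163 to 0.0362 in the other 13. The Uqcrc1 share alone did not separate the sets: it was 0.0930% to 47.3% in the 13, and the highest of these, neonatal sham library 5, lay above neonatal sham library 1 and had the fewest reads on other genes of the 13 (6709566). It is 1 of the 2 neonatal sham libraries used. The 8 genes had 0 to 16 reads each in adult MI library 5. Deposited values are reads scaled by 1 factor per library, in a unit the authors labelled CPM. Values below are from the 13 libraries (2 neonatal sham, 4 neonatal MI, 4 adult sham and 3 adult MI), with the result of all 16 beside each gene that passed. The lymphatic markers Prox1, Lyve1, Flt4, Pdpn, Mmrn1, Reln and Pecam1 were all detected in each of the 13 libraries and summed to 1039 to 3229. Ccl21a, the remaining marker on that list, was not analysed here. The 10 fibroblast markers described below summed to 763 to 7926. Their sum exceeded the lymphatic sum in every adult MI and neonatal sham library of the 13. In neonatal MI and adult sham it was higher in some libraries and lower in others. Sums over different genes do not give shares of cells.

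After infarction in the adult heart, 4 of the 8 genes rose and none fell, taking as passed an adjusted p under 0.05 with limma over all genes tested. Hgf, Igf1, Il6 and Inhba rose at P56, with log2 changes of 2.37, 1.08, 2.01 and 2.20, and Nrg1, at 1.66, came close to the threshold without passing it. Over all 13033 genes tested, 3.42% passed in either direction and 2.36% rose. The median log2 change of the 8 genes was 1.37, beside 0.01 for all genes tested. After infarction in the neonatal heart none of the 8 passed, and their median change was 0.24 beside 0.02. No gene of the table passed at P1 (0% of 13033) with limma or with edgeR, 7 passed with DESeq2, and 485 had an unadjusted p under 0.05 in limma. The test of the difference between the adult and the neonatal response passed for Hgf alone among the 8, where 0.483% of all genes passed. When all 16 libraries were fitted, 0 of the 8 passed for adult MI (0.174% of 13243 genes did), 0 for neonatal MI (0% did), 0 for the difference of responses (0.00755% did), 1 for age in sham (3.91%) and 0 for age after MI (0.106%). With edgeR 3 of the 8 passed for adult MI (2.62% of genes) and 2 for the difference (0.338%), and DESeq2 placed 4 (6.64%) and 2 (2.49%) past the threshold.

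**Figure D1:**
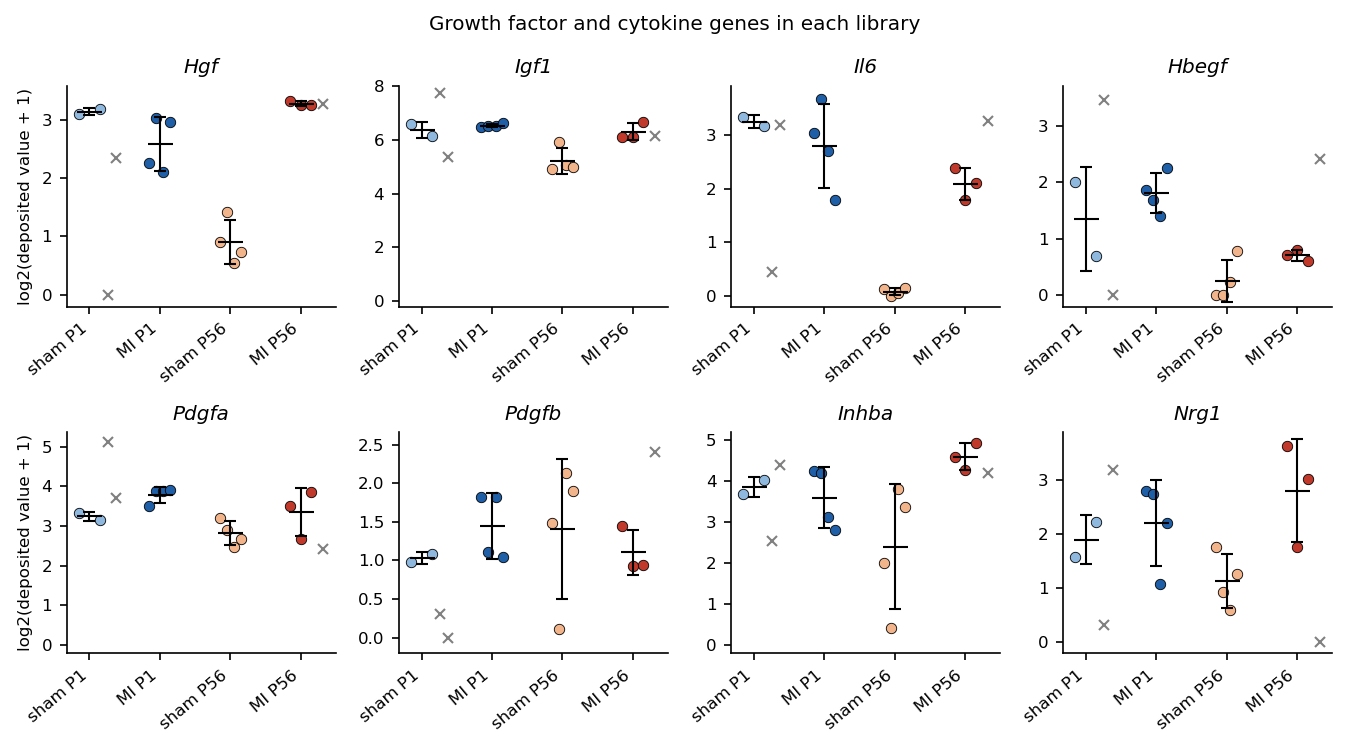
Deposited value of each of the 8 genes on a log2(value + 1) axis, by group, with 1 point per library, the mean as a horizontal bar and the SD as whiskers over the 13 libraries used. Grey crosses are the 3 libraries left out, and axis labels give the age as P1 (neonatal) or P56 (adult). Hgf, Igf1, Il6, Inhba and Nrg1 are higher in every adult MI circle than in every adult sham circle.

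Hgf, a mitogen and motogen for epithelial and endothelial cells, lies on chromosome 5 from 16553495 to 16620152, plus strand (GRCm38). Its deposited value was 0.874, 1.68, 0.452 and 0.663 in the adult sham libraries and 9.01, 8.45 and 8.48 in the adult MI libraries. At P1 it was 7.55 and 8.04 after sham surgery and 3.78, 7.10, 3.32 and 6.73 after MI. The adult sham libraries were low and the other 3 groups were high, and no group overlapped another. Adult sham libraries lay below neonatal sham libraries, as also for Igf1 and Il6, in 16.7% of genes tested. The order of the group means was adult MI (8.65 ± 0.315, SD, n = 3), neonatal sham (7.80 ± 0.347, n = 2), neonatal MI (5.23 ± 1.96, n = 4) and adult sham (0.918 ± 0.537, n = 4).

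The adult MI mean of Hgf was 9.42 times the adult sham mean, a log2(value + 1) change of 2.37 ± 0.33 (SE, adjusted p = 4.83e-04, limma). In the neonate the change was -0.55 with a 95% interval from -1.34 to 0.24 (adjusted p = 1.00). The responses at the 2 ages differed by 2.92 ± 0.50 on the log2 scale (adjusted p = 0.0159). That difference no longer passed without neonatal sham library 3 (0.0887), neonatal sham library 5 (0.217), neonatal MI library 1 (0.0534) or adult MI library 3 (0.0634). Between the ages, Hgf fell in sham libraries, with a log2 change of -2.24 from P1 to P56 (adjusted p = 5.25e-04), and after MI the ages differed by 0.69 (adjusted p = 0.285). With all 16 libraries the adult change of Hgf was the same size, 2.37, with an adjusted p of 0.127, and the neonatal change was 0.43. The difference of responses was then 1.94 (adjusted p = 0.513) and the sham age difference -1.25 (adjusted p = 0.221). In the libraries left out Hgf had 0, 1 and 2 reads.

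The HGF receptor gene Met fell with age and did not pass for infarction at either age. Its mean deposited value was 21.1 ± 8.32 in neonatal sham (n = 2), 26.0 ± 7.50 in neonatal MI (n = 4), 6.96 ± 4.30 in adult sham (n = 4) and 5.61 ± 3.14 in adult MI (n = 3). The age change of Met was -1.59 in sham (adjusted p = 0.0261) and -2.10 after MI (adjusted p = 0.00402). With 16 libraries these adjusted p-values were 0.715 and 0.317. Among the proteases that turn pro-HGF into its active form, Hpn, Plau and Plat were each lower in adult than neonatal sham libraries, and none of them passed for adult infarction. All 3 were also lower in adult than in neonatal libraries after MI. Plat fell with age from a mean of 26.3 to 9.28 in sham libraries (adjusted p = 0.00408). None of the 3 age calls in sham held with 16 libraries, at 0.0665 for Plat, 0.230 for Hpn and 0.361 for Plau. The age calls after MI did not hold with 16 libraries either.

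Igf1, which drives growth and survival in many tissues, lies on chromosome 10 from 87858265 to 87937042, plus strand. Its values were 29.5, 60.4, 32.3 and 30.4 in adult sham and 68.8, 68.3 and 101 in adult MI. The P1 libraries gave 94.5 and 69.7 after sham surgery and 88.1, 90.7, 90.1 and 97.5 after MI. Adult sham was again the lowest group, with library 2 of that group well above its other 3, and the remaining 3 groups overlapped. Group means were 91.6 ± 4.11 in neonatal MI, 82.1 ± 17.5 in neonatal sham, 79.3 ± 18.6 in adult MI and 38.2 ± 14.8 in adult sham.

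The adult response of Igf1 was a log2 change of 1.08 ± 0.24 (adjusted p = 0.0167), a ratio of means of 2.08. The call was lost without adult sham library 5 (0.0503) or adult MI library 3 (0.133). At P1 the change was 0.17, with a 95% interval from -0.41 to 0.75, and the difference of responses was 0.91 (adjusted p = 0.356), past the threshold only without adult sham library 2 (0.0433) among the alternatives run. The sham age difference was -1.13 (adjusted p = 0.00897), which did not pass without neonatal sham library 3 (0.151), whereas after MI the ages differed by -0.23 (adjusted p = 0.694). In all 16 libraries the adult response was 1.03 (adjusted p = 0.525) and the sham age difference -1.24 (adjusted p = 0.0932).

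Igf1r, the receptor of IGF1, averaged 50.9 ± 12.1 in neonatal sham, 55.5 ± 10.3 in neonatal MI, 28.2 ± 3.26 in adult sham and 34.5 ± 5.45 in adult MI. Insr, the insulin receptor, ran the other way with age: 24.1 ± 0.372, 28.5 ± 6.80, 45.1 ± 10.5 and 37.0 ± 6.13 in the same order. In sham libraries Igf1r fell by 0.82 with age (adjusted p = 0.0340) and Insr rose by 0.85 (adjusted p = 0.0384), and neither passed for infarction. Both lost the call with 16 libraries, at 0.974 and 0.888. Pappa, a protease that frees IGF1 from its binding proteins, rose after adult MI from a mean of 5.17 to 14.6 (log2 change 1.28 ± 0.33, adjusted p = 0.0379). Its lowest adult MI library (6.88) lay below its highest adult sham library (7.51). Pappa was also lower in adult than in neonatal sham libraries, a call lost with 16 libraries. Its neonatal means were 17.6 after sham surgery and 24.9 after MI. The related growth factor gene Igf2 fell steeply with age in sham libraries, from a mean of 1004 to 32.3 (log2 change -4.94, adjusted p = 1.83e-09).

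Il6, a cytokine of acute injury, lies on chromosome 5 from 30013114 to 30019981, plus strand, and was near 0 in the adult sham libraries. These held 4, 0, 2 and 6 reads, or values of 0.0896, 0, 0.0362 and 0.102. The library with 0 reads allows a value of up to 0.0776, that of 3 reads. In adult MI the values were 4.19, 2.44 and 3.32, from 113 to 214 reads. The neonatal libraries were at 9.09 and 7.97 after sham surgery and 7.17, 11.7, 5.51 and 2.44 after MI. Every library of the other groups lay above every adult sham library, neonatal MI overlapped both other high groups, and adult MI lay below neonatal sham.

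After adult MI the log2(value + 1) change of Il6 was 2.01 ± 0.38 (adjusted p = 0.00451). The ratio of the means was 58.2, but its denominator rests on the few reads just given, and the log scale with a pseudocount of 1 understates the change. The neonatal change was -0.46, with a 95% interval from -1.36 to 0.45. The responses differed by 2.47 ± 0.58 (adjusted p = 0.0598), which missed the threshold with limma and passed with edgeR (0.00991) and DESeq2 (1.17e-08) on whole reads. It also passed without neonatal MI library 2 (0.0386) or adult sham library 2 (0.0283). In sham libraries Il6 fell with age, by a log2 change of -3.17 (adjusted p = 7.17e-05), and after MI the ages differed by -0.70 (adjusted p = 0.35). In all 16 libraries the adult response of Il6 was 2.31 (adjusted p = 0.178) and passed with edgeR (0.0145), and the sham age difference was -2.45 (adjusted p = 0.0307).

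The receptor side of IL-6 was present in each group. Il6st, which encodes gp130, averaged 171 ± 26.7 in neonatal sham, 200 ± 12.8 in neonatal MI, 258 ± 16.2 in adult sham and 286 ± 42.8 in adult MI. Il6ra averaged 7.70 ± 2.23, 7.32 ± 2.55, 17.0 ± 4.07 and 11.5 ± 6.31 in that order. Neither receptor gene passed in any of the 5 comparisons. Socs3, the feedback inhibitor that STAT3 induces, averaged 31.0 in neonatal sham, 35.2 in neonatal MI, 1.06 in adult sham and 7.06 in adult MI. It rose after adult MI (log2 change 1.93 ± 0.40, adjusted p = 0.00862) and was lower in adult than in neonatal sham libraries (-4.02, adjusted p = 1.26e-05). With 16 libraries the first of these had an adjusted p of 0.537 and the second 0.0477.

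Inhba, the activin A chain, lies on chromosome 13 from 16011851 to 16027211, plus strand. It was at 3.00, 0.336, 13.1 and 9.25 in adult sham and at 23.1, 18.3 and 29.7 in adult MI. In the neonate it was 11.8 and 15.4 after sham surgery and 18.1, 17.3, 7.65 and 6.02 after MI. Adult MI was the highest group and overlapped no other, and the adult sham libraries were spread widely. Means were 23.7 ± 5.70 in adult MI, 13.6 ± 2.49 in neonatal sham, 12.3 ± 6.34 in neonatal MI and 6.42 ± 5.81 in adult sham, and the last 3 overlapped.

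After adult infarction Inhba rose by 2.20 ± 0.57 on the log2 scale (adjusted p = 0.0375), a ratio of means of 3.69. This call was the least firm of the 4, with an adjusted p of 0.179 in edgeR, 0.182 in DESeq2 and 0.267 with all 16 libraries. It also did not pass without neonatal MI library 3 (0.0501), adult sham library 1 (0.0738), adult MI library 1 (0.0978), adult MI library 2 (0.0706) or adult MI library 3 (0.182). At P1 the change was -0.26, with a 95% interval from -1.62 to 1.09, and the difference of responses was 2.47 ± 0.86 (adjusted p = 0.243). The age differences were -1.46 in sham (adjusted p = 0.153, or 0.0457 without adult sham library 3) and 1.01 after MI (adjusted p = 0.380). When all 16 libraries were used, the log2 values of Inhba were 2.10 for adult MI and -0.0678 for neonatal MI, with a difference of responses of 2.17 (adjusted p = 0.509).

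Activin receptor genes did not pass in any comparison. Acvr2a averaged 30.9 ± 6.00 in neonatal sham, 28.2 ± 7.76 in neonatal MI, 46.4 ± 33.8 in adult sham and 25.5 ± 7.43 in adult MI, and Acvr1b averaged 5.75 ± 0.812, 8.46 ± 1.74, 8.80 ± 3.32 and 14.2 ± 6.49. Acvr2b was low, with means of 0.480 to 1.75. Fstl1, a secreted glycoprotein of the follistatin family, rose after adult MI from 139 to 527 (log2 change 1.95 ± 0.30, adjusted p = 9.12e-04) with no overlap, and its adult response exceeded the neonatal one by 2.19 (adjusted p = 0.0373). With 16 libraries these adjusted p-values for Fstl1 were 0.122 and 0.509. Fstl1 was also lower in adult than in neonatal sham libraries, a call lost with 16 libraries. Among the binding proteins and inhibitors, the difference of responses also passed for Igfbp5 in the 13 libraries, in the opposite direction.

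Nrg1, a ligand of ERBB3 and ERBB4 that endothelial cells supply to cardiomyocytes, lies on chromosome 8 from 31814551 to 32884029, minus strand. The adult sham libraries gave 2.38, 0.905, 0.506 and 1.38 and the adult MI libraries 11.3, 2.39 and 7.04. At P1 the values were 1.96 and 3.62 after sham surgery and 5.94, 5.68, 1.10 and 3.58 after MI. The adult groups did not overlap, but the lowest MI library stood just above the highest sham library, and neonatal MI overlapped every other group. The means were 6.90 ± 4.45 in adult MI, 4.07 ± 2.25 in neonatal MI, 2.79 ± 1.17 in neonatal sham and 1.29 ± 0.806 in adult sham.

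The adult change of Nrg1 was 1.66 ± 0.47 (adjusted p = 0.0585) in the 13 libraries and 0.97 (adjusted p = 0.814) in all 16. DESeq2 placed it past the threshold, as did leaving out neonatal MI library 3, adult sham library 1 or adult MI library 2. At P1 the change was 0.31 (95% interval -0.82 to 1.44), and the difference of responses was 1.35 (adjusted p = 0.521), with 0.38 and 0.58 for these from all 16. The NRG1 receptors Erbb3 and Erbb4 were too low for the test, with means of 0.319 to 0.471 and 0.316 to 0.669, while their partner Erbb2 averaged 2.76 ± 0.240 in neonatal sham, 3.86 ± 1.59 in neonatal MI, 2.87 ± 0.564 in adult sham and 2.66 ± 0.682 in adult MI.

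Hbegf, a membrane-anchored EGFR ligand released by cleavage, lies on chromosome 18 from 36504929 to 36515805, minus strand. It was a low gene in the adult, at 0, 0, 0.181 and 0.714 in adult sham and 0.647, 0.733 and 0.521 in adult MI. Neonatal values were 3.00 and 0.616 after sham surgery and 2.65, 2.23, 1.65 and 3.78 after MI. Every neonatal MI library lay above every adult library of either group, while the 2 neonatal sham libraries lay far apart. Group means were 1.81 ± 1.68 and 2.58 ± 0.903 in the neonatal sham and MI groups and 0.224 ± 0.338 and 0.634 ± 0.107 in the adult ones.

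None of the 5 comparisons passed for Hbegf. Its infarct changes were 0.45 in the adult (adjusted p = 0.540) and 0.46 in the neonate (adjusted p = 1.00). The age differences were -1.09 in sham (adjusted p = 0.0720) and -1.10 after MI (adjusted p = 0.0707). Both missed the threshold. Leaving out 1 library moved the sham value from -1.74 (without neonatal sham library 5) to -0.44 (without neonatal sham library 3). The sham difference passed without neonatal sham library 5 (0.0353) or adult sham library 5 (0.0489), with a pseudocount of 0.25 (0.0498) and with edgeR on all 16 libraries (0.0322), and that after MI without neonatal sham library 3 (0.0482) or adult sham library 2 (0.0385), after quantile normalization (0.0461) and in a fit of the MI groups alone (0.0270). All 16 libraries gave Hbegf changes of 0.88 for adult MI, 0.27 for neonatal MI, -1.28 for age in sham and -0.67 for age after MI, none past the threshold. The EGFR gene Egfr averaged 39.3 ± 19.3 in neonatal sham, 32.5 ± 10.6 in neonatal MI, 51.1 ± 56.9 in adult sham and 69.8 ± 7.56 in adult MI, and did not pass either. Ereg, epiregulin, another EGFR ligand, rose after adult MI from a mean of 0.113 to 2.80 (log2 change 1.76 ± 0.37, adjusted p = 0.0109) without overlap. Errfi1, a feedback inhibitor of EGFR, rose with it from 31.4 to 66.8 (1.02 ± 0.23, adjusted p = 0.0179). Neither passed in all 16 libraries, at 0.576 for Ereg and 0.805 for Errfi1. Ereg was also lower in adult than in neonatal sham libraries, a call lost with 16 libraries. Its neonatal means were 2.61 after sham surgery and 5.42 after MI.

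Pdgfa, a mitogen of fibroblasts and other mesenchymal cells, lies on chromosome 5 from 138976014 to 138997370, minus strand. It was at 8.14, 6.49, 4.59 and 5.43 in adult sham and 10.4, 5.43 and 13.5 in adult MI. Neonatal sham libraries held 9.05 and 7.93 and neonatal MI libraries 10.3, 13.6, 13.8 and 13.9. The adult groups overlapped, and each neonatal MI library lay above both neonatal sham libraries. Means ran from 12.9 ± 1.77 in neonatal MI and 9.80 ± 4.09 in adult MI to 8.49 ± 0.789 in neonatal sham and 6.16 ± 1.53 in adult sham.

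The infarct change of Pdgfa was 0.54 in the adult (adjusted p = 0.374) and 0.54 in the neonate (adjusted p = 1.00). Leaving out 1 library moved the adult value between 0.28 (without adult MI library 3) and 0.87 (without adult MI library 2). The separation of neonatal MI above neonatal sham was seen in 8.89% of genes, and of MI below sham, the pattern of Hgf, in 7.27%. From all 16 libraries the change of Pdgfa was 0.30 in the adult and -0.04 in the neonate. In the adult, the 5 genes whose MI libraries lay above all sham libraries stand beside 8% of genes tested.

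Pdgfb, the chain that recruits pericytes to blood vessels, lies on chromosome 15 from 79995900 to 80014808, minus strand. It was 1.79, 0.0776, 3.40 and 2.74 in adult sham and 1.72, 0.906 and 0.912 in adult MI. The neonatal libraries gave 0.970 and 1.12 after sham surgery and 2.53, 1.17, 2.54 and 1.05 after MI. All 4 groups overlapped. Its changes were -0.30 in the adult (95% interval -1.18 to 0.57) and 0.42 in the neonate (-0.57 to 1.41), so it was the 1 gene of the 8 with a lower adult MI mean, and with 16 libraries the adult change was 0.02.

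The PDGF receptor genes did not pass in any comparison. Pdgfra, which fibroblasts carry, averaged 67.5 ± 23.1 in neonatal sham, 52.5 ± 15.5 in neonatal MI, 56.5 ± 22.6 in adult sham and 82.7 ± 25.1 in adult MI. Pdgfrb, a pericyte gene, averaged 5.90 ± 2.88, 9.75 ± 4.18, 17.8 ± 9.81 and 27.9 ± 14.7 in that order.

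**Figure D2:**
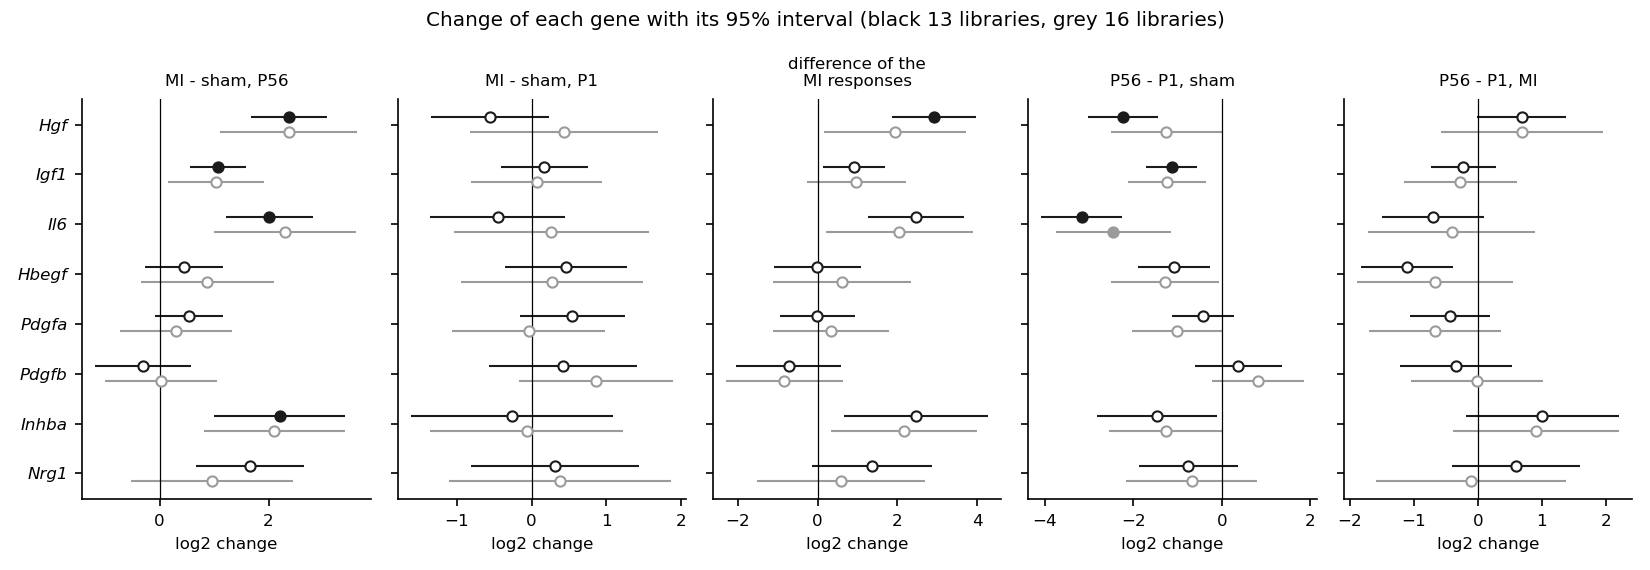
Log2 change of each gene with its 95% interval in 5 comparisons, in black from the 13 libraries and in grey from all 16. Filled points passed at an adjusted p under 0.05. The adult panel has 4 filled black points (Hgf, Igf1, Il6, Inhba), the neonatal panel none, and the age panel for sham 3 black points and 1 grey point below 0.

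Between adult and neonatal sham libraries, 3 of the 8 genes fell (Il6, Hgf and Igf1) and none rose. In that comparison 13.2% of all genes passed and 7.28% fell. The median of the 8 was -1.11 beside 0.00 for all genes. After MI none of the 8 passed between the ages, where 5.35% of genes did, and their median was -0.29 beside 0.01. Adult MI libraries lay above neonatal MI libraries for Hgf and Inhba, as in 9.44% of genes, and below them for Hbegf, as in 11.2%. The adult sham libraries enter both the adult infarct comparison and the sham age comparison, so the values of a gene in these are linked: Hgf was at 2.37 and -2.24, Igf1 at 1.08 and -1.13, Il6 at 2.01 and -3.17, Inhba at 2.20 and -1.46.

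On a per-length scale, dividing group means by kilobases of exon, Igf1 was the most abundant of the 8 in each group. It stood at 8.29 in neonatal sham, 9.25 in neonatal MI, 3.85 in adult sham and 8.01 in adult MI. Inhba and Pdgfa came next in adult MI at 3.71 and 3.14, ahead of Il6 at 1.37 and Hgf at 1.20, and Hbegf was lowest at 0.131. In adult sham Il6 was the lowest of the 8 at 0.0235 and in neonatal sham it was second to Igf1 at 3.51. Il6st exceeded each ligand gene on this scale, at 15.4 to 25.8.

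**Figure D3:**
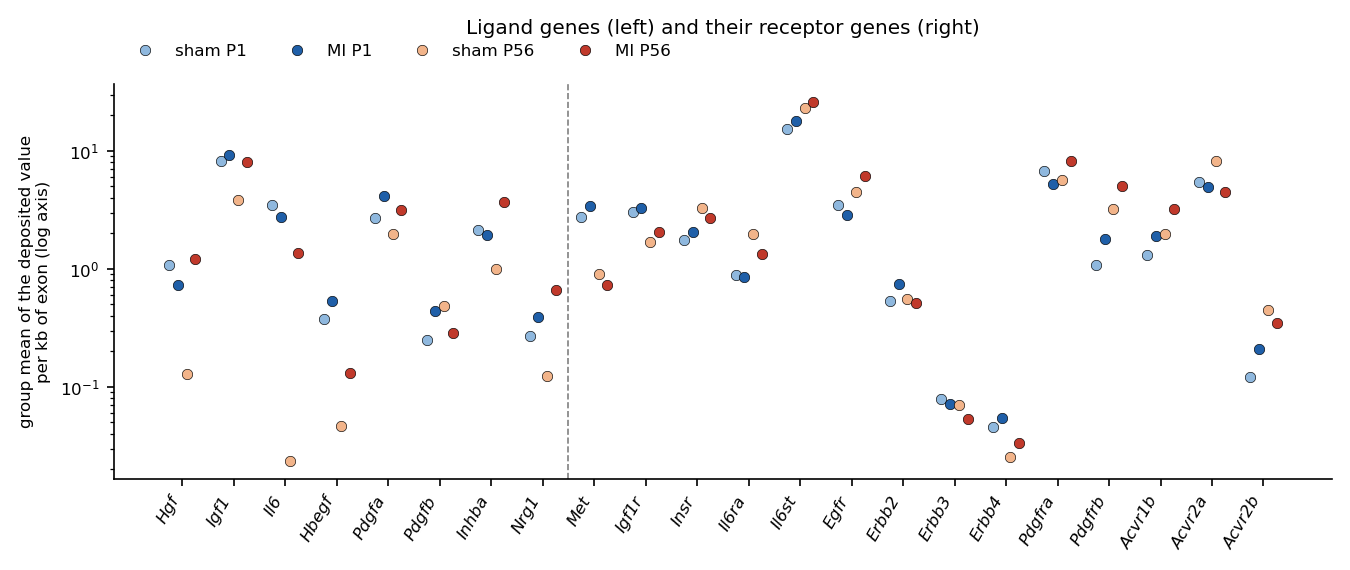
Group means of the deposited value per kilobase of exon on a log axis, over the 13 libraries, for the 8 ligand genes on the left of the dashed line and for 14 receptor genes on the right. Il6 and Hgf span more than the receptors of their own pathways, and Met is lower in both adult groups.

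Genes of the same pathways were counted over lists drawn up by role, to be read beside the 3.42% of all genes that passed for adult MI. Of 15 receptor genes 14 were in the table (Acvr1c was not analysed here) and 12 were tested, and none passed for adult MI (median log2 change 0.03 beside 0.01 for all genes). Of 24 other ligands of the same families 7 were tested and Ereg rose, of 15 activating proteases 13 were tested and Pappa rose, and of 20 binding proteins and inhibitors 15 were tested and Fstl1 and Errfi1 rose (median -0.22). No tested gene of these 4 lists passed as lower after adult MI, although only 5 of the 15 binding protein and inhibitor changes were above 0. None passed at P1. With all 16 libraries none of them passed for MI at either age.

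Target genes of the receptors were counted in the same way, beside the 2.36% of all genes that rose after adult MI. Of 13 ERK feedback and target genes tested, Ier3 rose from a mean of 3.08 to 10.5 (log2 change 1.53, adjusted p = 0.0167), and the median was 0.23. Of 11 STAT3 target genes tested, Socs3 rose, and the median was 0.61, with 10 of 11 changes above 0. In the ERK list 12 of 13 changes were above 0, and in the list of SMAD2 and SMAD3 target genes 7 of 8, where the median of all genes tested was 0.01. Of 8 SMAD2 and SMAD3 target genes 2 rose, and the median was 0.31. Ltbp2, a matrix protein on that list, rose from 3.34 to 29.8 (2.79 ± 0.51, adjusted p = 0.00360). None of the 3 lists had a call at P1, where their medians were -0.02, 0.20 and 0.52. There 6 of 13, 8 of 11 and 7 of 8 changes were above 0. With 16 libraries none of the 3 lists had a call for adult MI, the adjusted p of Ltbp2 being 0.0943. In that fit 8 of 13 ERK, 8 of 11 STAT3 and 7 of 8 SMAD changes were above 0 for adult MI. The ERK median was then 0.19 for adult MI and 0.63 at P1, beside -0.17 and 0.39 for all genes.

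With age in sham libraries more target genes fell than rose, beside 7.28% of all genes that fell. Dusp5, Phlda1, Spry2, Ier3 and Dusp6 fell among the 13 ERK genes (median -0.74), and Socs3, Cebpd, Pim1 and Stat3 fell among the 11 STAT3 genes (median -0.67). Dusp5, an ERK phosphatase, fell from a mean of 6.37 to 0.182 (log2 change -2.65, adjusted p = 3.40e-05) and Spry2, a receptor tyrosine kinase inhibitor, from 26.5 to 7.18 (-1.81, adjusted p = 0.00142). Among the 8 SMAD genes 3 fell, with Tgif1 and Skil among them, and Pmepa1 rose (median -0.52). The binding protein gene Igfbp5 rose with age from 104 to 791 (2.88 ± 0.32, adjusted p = 1.26e-05), and Igfbp6 and Stc2 rose as well. In the fit of all 16 libraries Dusp5, Spry2, Socs3, Igfbp5, Stc2 and Igf2 kept their calls for age in sham. After MI, Dusp5, Dusp6 and Phlda1 of the ERK list and Socs3 and Pim1 of the STAT3 list were also lower in adult libraries. Of the 8 SMAD genes 2 were then higher and 1 lower, and 5.35% of all genes passed. None of these target gene calls after MI held with 16 libraries.

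**Figure D4:**
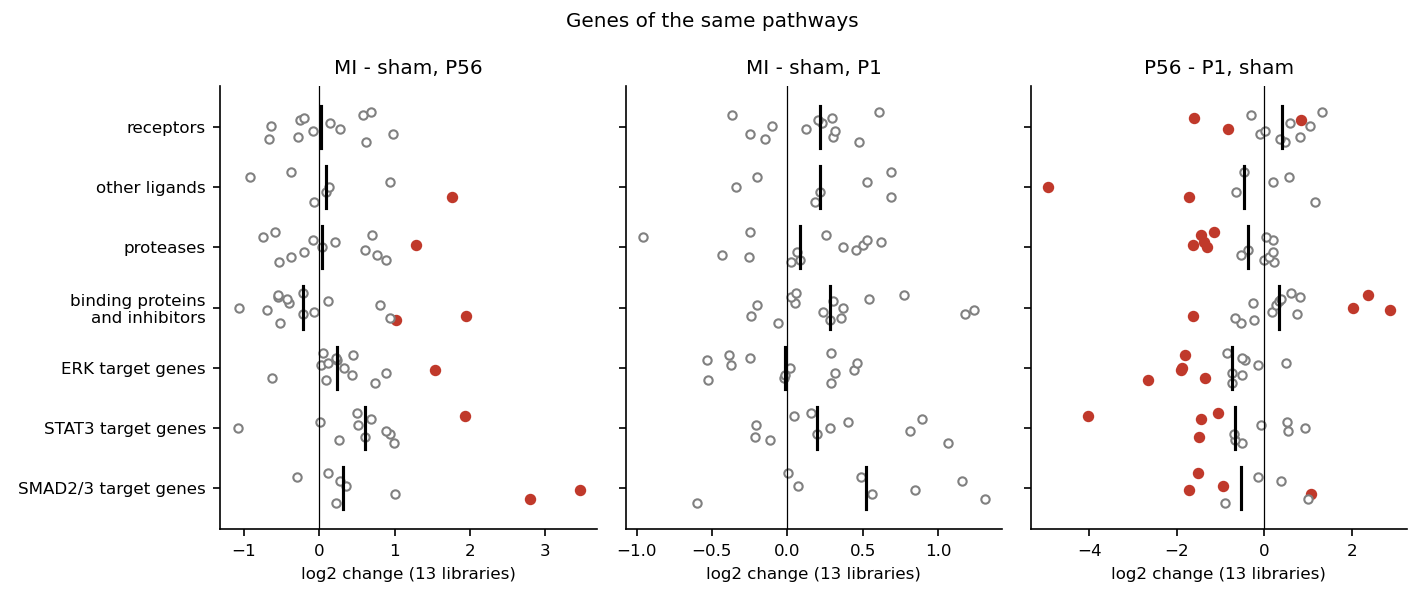
Log2 change of each tested gene of 7 lists (points) with the list median (black bar) in 3 comparisons over the 13 libraries. Filled red points passed at an adjusted p under 0.05. The infarct panel at P56 has at most 2 filled points per list, the P1 panel none, and in the age panel the ERK and STAT3 lists have 5 and 4 filled points below 0.

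Transcripts of other cell types differed between the same groups. The 10 fibroblast markers summed to 763 to 3289 in adult sham and 3664 to 7926 in adult MI, and none was at 0 in any of the 13 libraries. After adult MI 4 of the 10 were higher (Postn, Col1a1, Col3a1 and Col1a2), beside 2.36% of all genes, and 6 did not pass. With all 16 libraries Col1a1, Postn and Col1a2 kept this call, where 0.174% of genes passed. Postn also passed for the difference of responses, with 13 and with 16 libraries. Pdgfra is on that list as well as among the receptors, and Pdgfrb is on the pericyte list. In the neonate the sum was 3175 to 6608 after sham surgery and 1852 to 5505 after MI. The adult sham range overlapped both neonatal ranges through library 2 (3289) alone, the others being at 763, 1834 and 1289. Postn, Col1a1, Col3a1 and Col1a2 were also lower in adult than in neonatal sham libraries, where 7.28% of all genes fell. The median change of the 10 markers there was -1.36, and with 16 libraries Postn and Col1a1 kept this call. Markers of leukocytes and macrophages summed to 6.24 to 10.5 in adult sham and 18.0 to 90.9 in adult MI, with 2 of 6 tested genes higher (Itgam and Cd68), beside 17.8 to 18.7 in neonatal sham and 11.2 to 31.8 in neonatal MI. Cd68 also passed for the difference of responses, and it was lower in adult than in neonatal sham libraries. Itgam kept its adult MI call with all 16 libraries, and in the 13 it was higher in adult than in neonatal MI. At most 1 of the 8 leukocyte markers in the table was at 0 in a library. Whether these cells contributed to the changes in Hgf, Igf1, Il6, Inhba and their pathway genes was not tested. In such bulk libraries fewer cells of a type and less RNA per cell cannot be told apart.

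Cardiomyocyte, blood endothelial and pericyte marker sums ran the other way after adult MI, whereas mesothelial sums overlapped between the groups. Cardiomyocyte markers summed to 1269 to 2305 in adult sham, 320 to 565 in adult MI and 100.0 to 339 at P1, with all 8 lower after adult MI and higher with age in sham. Blood endothelial markers, 10 genes, summed to 506 to 896 in adult sham, 204 to 417 in adult MI and 124 to 286 at P1, with 4 lower after adult MI. The 7 pericyte and smooth muscle markers in the table summed to 449 to 1152 in adult sham and 208 to 335 in adult MI, with 1 higher and 2 lower, and to 103 to 288 at P1. Mesothelial markers summed to 10.8 to 113 in adult sham, 14.0 to 37.0 in adult MI and 24.9 to 93.0 at P1, with up to 2 of 7 at 0 in an adult sham library. The part of these cells in the age and infarct differences was not tested. None of the 7 lymphatic markers passed in any comparison, and for adult MI all 7 had changes below 0, with a median of -0.46.

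**Figure D5:**
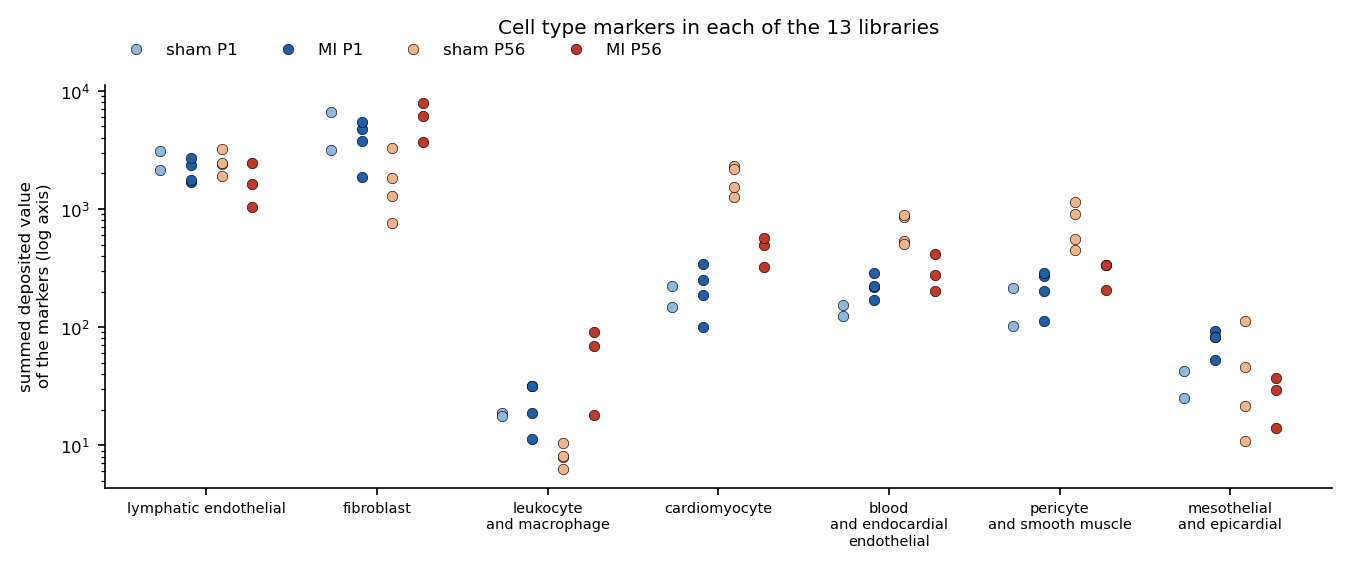
Summed deposited value of the markers of 7 cell types on a log axis, with 1 point for each of the 13 libraries, by group. Fibroblast sums reach lowest in adult sham (763 to 3289), a range that overlaps both neonatal groups through adult sham library 2 alone. Cardiomyocyte sums are highest in adult sham (1269 to 2305), while lymphatic sums overlap in all 4 groups.

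Across the 13 libraries, Hgf, Igf1 and Il6 ran closest to each other among the 8, with Pearson r of 0.84 for Hgf and Igf1, 0.81 for Hgf and Il6 and 0.81 for Igf1 and Il6. Pdgfb stood apart, with r from -0.44 with Hgf to 0.38 with Inhba. Of 11075 genes with a usual symbol, those most like Hgf were Acsl4 (r = 0.97), Fam91a1 (0.94) and Tnc (0.92). Tnc, a matrix glycoprotein gene, averaged 9.70 in adult sham and 283 in adult MI. Most like Il6 were Ube2c (0.97), Cxcl1 (0.97) and Cfl1 (0.96), and Cxcl1, a neutrophil chemoattractant gene, averaged 69.7, 88.1, 1.29 and 15.4 in neonatal sham, neonatal MI, adult sham and adult MI.

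For Igf1 the most alike were Aspm (0.95), Arf4 (0.94) and Tcp1 (0.93), for Inhba Cdc123 (0.94), Kat2a (0.94) and Prrc1 (0.94), and for Nrg1 Errfi1 (0.89), Gcnt4 (0.88) and Sprr1a (0.88). Pdgfa was most like Ankle1 (0.94), Pappa (0.88) and Syncrip (0.87), Pdgfb most like Neurl4 (0.93), Ephb4 (0.92) and Csdc2 (0.88), and Hbegf most like Zfp503 (0.95), Ugcg (0.94) and Txnrd1 (0.93). These values describe libraries that share groups and depth, and the highest of so many coefficients is high by selection.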

How the data were processed

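Whole-transcriptome RNA of 16 libraries of sorted cardiac lymphatic endothelial cells was analysed, 4 per group. The deposited values are signal, 1 column per library, which the authors labelled CPM and whose column sums differ. The tools Trimmomatic, STAR, HTSeq and edgeR and the build mm10 (GRCm38) are named, without a role, in the submitters' processing notes. Tool versions are not given in the sources used here. Dividing by 1 constant per library turned 100% of the deposited values into whole reads, within 0.01 read. The design had assumed a CPM-like unit, and the test was kept. The fourth column of each group carries the number 5, which no label has, and was placed by its group name.

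Genes reaching a value of 1 in 4 or more of the libraries fitted were tested by limma-trend (limma 3.58.1, R 4.3.3) on log2(value + 1), with the 4 group means and 1 shared spread, two-sided. Calls needed a p under 0.05 after Benjamini-Hochberg adjustment over every gene in the fit. The main fit used the 13 libraries with a read on at least 10000 genes. These had 6709566 to 12918569 reads outside mitochondrial ribosomal RNA and Uqcrc1, and limits from counts of 0 (3 reads) cover counting error only. Alternatives were all 16 libraries, other filters, pseudocounts and scalings, only the groups compared, a replicate block, edgeR 4.0.16 and DESeq2 1.42.0 on whole reads, and fits that each dropped 1 library. The fit was also run on simulated reads with known changes, for MI against sham at each age only. That simulation held no difference in cell types and none of the low-complexity libraries, so it cannot speak to their effect on the calls.

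The 8 genes, the lists, the markers and the choice of 13 libraries were made with earlier results of these data known. All 8 genes and all receptors are named. Of the other lists, up to 4 called genes per comparison with the smallest adjusted p could be named, and 3 genes per member by Pearson r over the 13 libraries, leaving out predicted genes. Dusp6 and Plau, outside that rule for age in sham, were named there after their values were seen. Promoter windows are from RefSeq and exon lengths from GENCODE M21. The values of 1 pathway gene are not reported here.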

Additional observations from a re-analysis of the deposited data

Results flagged for a closer look

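In the adult sham group the Igf1 value of library 2, 60.4, lay far from the other 3 (29.5, 30.4 and 32.3). Its gap to the nearest was 0.910 of the range of the group, above the critical value of Dixon's test for 4 libraries. That library also had the fewest genes with a read of the 13, 14121. Pdgfa in neonatal MI library 1, at 10.3, lay below the other 3 by 0.930 of the range. In all, 16 groups of 4 were examined, and chance alone marks about 1 in 20. The adult response of Hgf exceeded the neonatal response by 2.92 on the log2 scale, the 1 difference between the ages that passed among the 8 genes.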

How the results depend on the processing

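The 4 adult calls were not equally firm. Hgf passed in each alternative on 13 or fewer libraries. The 3 low-complexity libraries decided most: with all 16, no member was called for adult MI (0, and 1 with edgeR on all 16), 0 for the difference of responses with either tool, and 1 for age in sham (3 with edgeR: Hbegf, Igf1 and Il6). That fit also moved the median change of all genes to 0.39 at P1 and -0.17 at P56. Genes called then were 23 for adult MI (39 with edgeR), 1 for the difference, 518 for age in sham (1383 with edgeR) and 14 for age after MI (14 with edgeR). The neonatal sham group rests on 2 libraries, and the adult sham values of Hbegf and Il6 rest on few reads (0 to 42 and 0 to 6 per library). Fitting only the groups compared left 1 member called for adult MI (Hgf), 0 for age in sham, and 1 for age after MI, with 153, 728 and 1136 genes and 8 genes for MI at P1. That fit tested 6 members for adult MI, without Il6, and 5 for age in sham, without Il6 and Hgf, so those calls were not tested there. Quantile normalization gave 1 member for age after MI and 2 genes for MI at P1. A pseudocount of 0.25 gave 2 members for the difference and 2 genes at P1 and ended the adult call of Inhba (adjusted p = 0.0608), a pseudocount of 4 gave 34 genes for the difference and ended the adult call of Il6 (adjusted p = 0.0567), and the stricter filter gave 1 gene at P1. edgeR and DESeq2 each gave 2 members for the difference, and DESeq2 866 genes for adult MI, 7 at P1 and 324 for the difference. The cause of these shifts was not tested.

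Library numbers are shared between groups. The 15 same-number pairs had correlations of their deviations from -0.3205 to 0.1355, and the 47 other pairs from -0.1456 to 0.3205. Deviations from the mean of so few libraries depend on one another, so these values cannot show whether the numbers pair libraries. With the number as a replicate block, 5 members were called for adult MI, Nrg1 being added (adjusted p = 0.0481), the difference of responses had 8 genes, and the Inhba change at P1 was 0.00246.

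Leaving out each library in turn, 2 to 4 members were called for adult MI, 0 to 3 for the difference, 2 to 4 for age in sham, 0 to 1 for age after MI and 0 for MI at P1. The genes called ran from 143 to 645, 1 to 228, 644 to 2270, 317 to 1344 and 0 to 2. Leaving out adult MI library 3 gave the 143, neonatal sham library 5 the 1 and the 644, adult MI library 2 the 317, and adult sham library 2 the 645, 228, 2270 and 1344.

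Of 977 values under alternatives 39 changed sign, each in a comparison not called. At P1, all 16 libraries gave 0.43 for Hgf, 0.26 for Il6 and -0.0391 for Pdgfa, and edgeR on these gave 0.0242 for Hgf, -0.23 for Igf1, 0.12 for Il6, -0.63 for Hbegf, -0.32 for Pdgfa and 0.00714 for Inhba. Leave-one-out ranges at P1 were -0.0456 to 0.39 for Igf1, -0.19 to 1.11 for Hbegf and -0.00912 to 0.69 for Nrg1. With all 16, Pdgfb for adult MI was 0.0227 and Nrg1 for age after MI -0.10. The difference of responses of Hbegf, -0.01 in the 13 libraries, was 0.61 with all 16, 0.43 with a pseudocount of 0.25, 0.98 with edgeR, 0.99 with DESeq2, 2.32 with edgeR on all 16 and -0.66 to 0.64 in leave-one-out. That of Pdgfa, also -0.01, was 0.34 with all 16, 0.00318 with a pseudocount of 0.25, 0.0055 after median-of-ratios rescaling, 0.0623 after quantile normalization, 0.10 with edgeR, 0.0773 with DESeq2, 0.88 with edgeR on all 16 and -0.26 to 0.33 in leave-one-out. The fit of edgeR on all 16 libraries was chosen after seeing the data.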
